A study of Rattus norvegicus with 12 samples.

Results

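The collagen genes of the rat left ventricle were examined in 4 groups of 3 rats. They were taken as every gene whose symbol consists of Col, a number, the letter a and a number, which gave 43 of 34700 genes in the expression table. By their textbook class, 11 were fibrillar collagens (types I, II, III, V, XI, XXIV and XXVII), 8 were basement membrane collagens (type IV with the multiplexins Col15a1 and Col18a1) and 24 were other collagens. Col6a3 and Col21a1 are not analysed here.

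All 12 animals were male Sprague-Dawley rats that had surgery at 8 weeks of age and were sampled 12 weeks later. In Sham rats a thread was passed around the left anterior descending coronary artery without tying it. HF rats had heart failure after an infarction made by tying that artery, and their labels call them sedentary. HFE rats were HF rats trained on a treadmill, 60 min per session and 5 sessions a week, over 8 weeks. BAIBA rats were HF rats given β-aminoisobutyric acid, a small amino acid released by working muscle, at 75 mg/kg per day for 8 weeks. The study describes an exercise experiment, in which Sham and HF rats stayed sedentary, and a BAIBA experiment, in which Sham and HF rats received water by gavage, and the sources used here do not say from which of them the sequenced Sham and HF rats came. HFE and BAIBA rats may therefore belong to separate cohorts, which cannot be told apart from the treatments. A supplement of the study has Sham and HF rats given BAIBA, whereas its methods do not, and the methods were followed. The sample titles call the treated group HF+Med without naming BAIBA, and it was taken to be the BAIBA group. RNA came from the anterior wall of the left ventricle, and for BAIBA rats the methods specify the area around the infarct. The HF tissue is placed at the infarct border in 1 passage of the study and only in the anterior wall in its methods, so that site and treatment cannot be told apart for BAIBA. Ligated rats had been sorted into groups by cardiac function, and each value is from 1 rat.

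Collagens are proteins of 3 chains wound into a triple helix. In the heart, fibroblasts make most of the type I and type III collagen that forms the stiff fibres between muscle bundles and the scar after an infarct, and type V is built into the same fibrils. Type IV collagen forms the sheet-like network under endothelium and around each cardiomyocyte, with types XV and XVIII at its surface. Type VI collagen forms beaded filaments that link cells to both kinds of matrix, and the remaining types decorate fibrils, anchor membranes or span them.

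Libraries held 14812541 to 19732588 counts, and replicate rats correlated at Pearson r 0.947 to 0.978 across genes. Ventricular Myl2 was at 1834 to 2808 CPM (counts scaled to library size with TMM factors) in every rat, so ventricular muscle was present throughout. Atrial Myl7, an atrial myosin light chain, was at 11.3 to 40.6 CPM in Sham, 0.745 to 19.7 in HF, 0.443 to 32.4 in HFE and 0.301 to 0.669 in BAIBA, where Sham and BAIBA did not overlap. BAIBA rat 1 stood apart in the summed activated fibroblast markers (6 of 6 genes in the table, none at 0 in all rats), at 109.7 CPM against 17.6 to 49.7 in the other 11 rats. Postn at 40.3 CPM and Ltbp2 at 47.9 CPM carried that sum, against at most 18.1 and 15.5 in the others. Fap and Cilp in BAIBA rat 1, at 7.86 and 9.70 CPM, lay within the range of the others. That rat also had the highest macrophage sum, 232 CPM, and the highest mesothelial sum, 91.9 CPM.

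Together the 43 collagens took 0.163% to 0.236% of the scaled counts of a rat. Fibrillar collagens accounted for 0.0981% ± 0.00656 in Sham, 0.0772% ± 0.0101 in HF, 0.0799% ± 0.00887 in HFE, 0.0992% ± 0.033 in BAIBA (mean ± SD, n = 3). HF and HFE rats lay below Sham rats in this share, with all HF and HFE values under the lowest Sham value, and BAIBA rats spread from 0.0710% to 0.136%. Basement membrane collagens accounted for 0.074% ± 0.00393 in Sham, 0.0777% ± 0.0182 in HF, 0.0868% ± 0.00486 in HFE, 0.0623% ± 0.00725 in BAIBA. Their share was below all HFE values in each BAIBA rat. Other collagens accounted for 0.035% ± 0.000842 in Sham, 0.037% ± 0.00201 in HF, 0.0377% ± 0.00329 in HFE, 0.043% ± 0.00233 in BAIBA, and each BAIBA rat was above each Sham and each HF rat. These shares are descriptions without a test. In RNA of whole tissue, fewer cells of a type and less RNA per cell cannot be told apart.

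The ventricle used few collagens at a high level. Ranked by FPKM, which divides counts by gene length and so allows genes to be compared, Col3a1 led at a mean of 108 over the 12 rats, followed by Col4a1 at 59.5, Col6a1 at 45.2, Col4a2 at 40.3, Col6a2 at 37.95, Col1a1 at 24.0 and Col1a2 at 17.3. Across rats, neighbours in this order from Col4a1 to Col1a2 overlapped in range, so only the first place of Col3a1 was free of overlap. Col1a1, Col1a2 and Col3a1 made up 77.1% to 87.1% of the fibrillar counts in each rat, Col4a1 and Col4a2 made up 73.3% to 83.3% of the basement membrane counts, and Col6a1 and Col6a2 made up 63.3% to 79.1% of the other counts. At the low end, Col10a1 (growth plate cartilage), Col2a1 (the main cartilage collagen), Col6a4, Col9a1, Col19a1, Col23a1, Col25a1 and Col26a1 had no read in at least 1 rat. Col26a1 had no read in 10 of the 12. A count of 0 allows up to 3 counts, or 0.152 to 0.203 CPM before TMM scaling, counting error only.

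**Figure D1:**
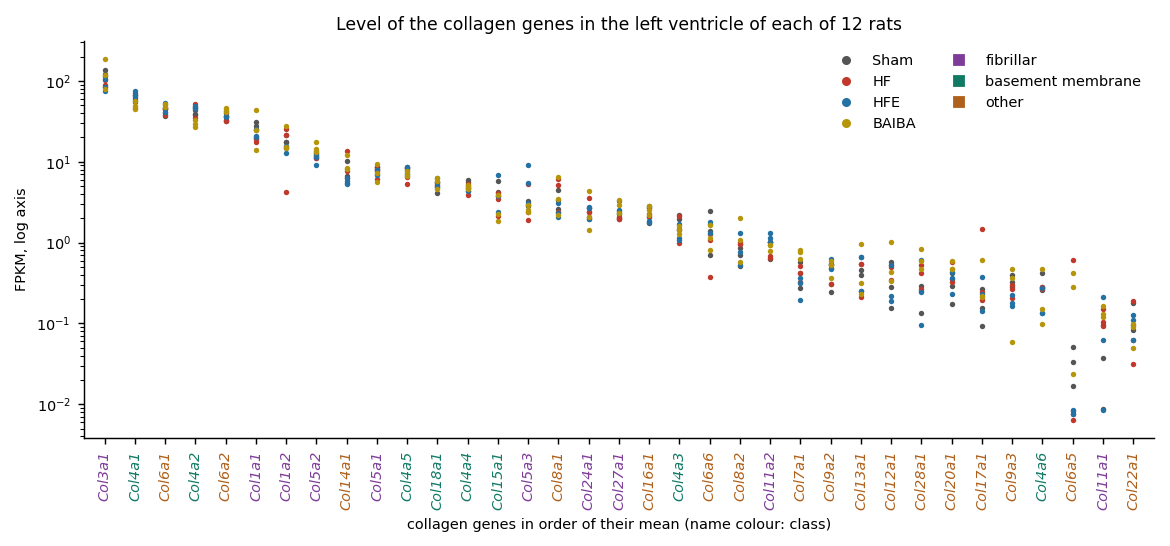
FPKM on a log axis (vertical) for 35 collagen genes with a read in every rat, in order of their mean (horizontal). Each point is 1 of 12 rats coloured by group, and gene names are coloured by class. The 8 collagens with no read in some rat are not drawn. Col3a1 lies highest, and Col6a5 spreads most widely, from 0.00639 to 0.601 FPKM.

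Each gene was tested with edgeR in pairs of groups, and called when the adjusted p was under 0.05 and the log2 fold change over 1 in size, the limits of the study. No collagen was called in any of the 6 comparisons. Between HF and Sham, HFE and HF, BAIBA and HF, and HFE and Sham this matched the background of all genes tested, where 0% were called each time, while 0.0402% were called between BAIBA and Sham and 0.0808% between BAIBA and HFE. A test of any difference among the 4 groups called none of the 35 collagens tested, against 0% of all genes. The comparisons share groups with each other, so their values are given side by side and not as separate evidence. Genes with low counts are left out of each test, which kept 31 to 34 collagens. Unadjusted values below therefore describe the data and are not calls.

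**Figure D2:**
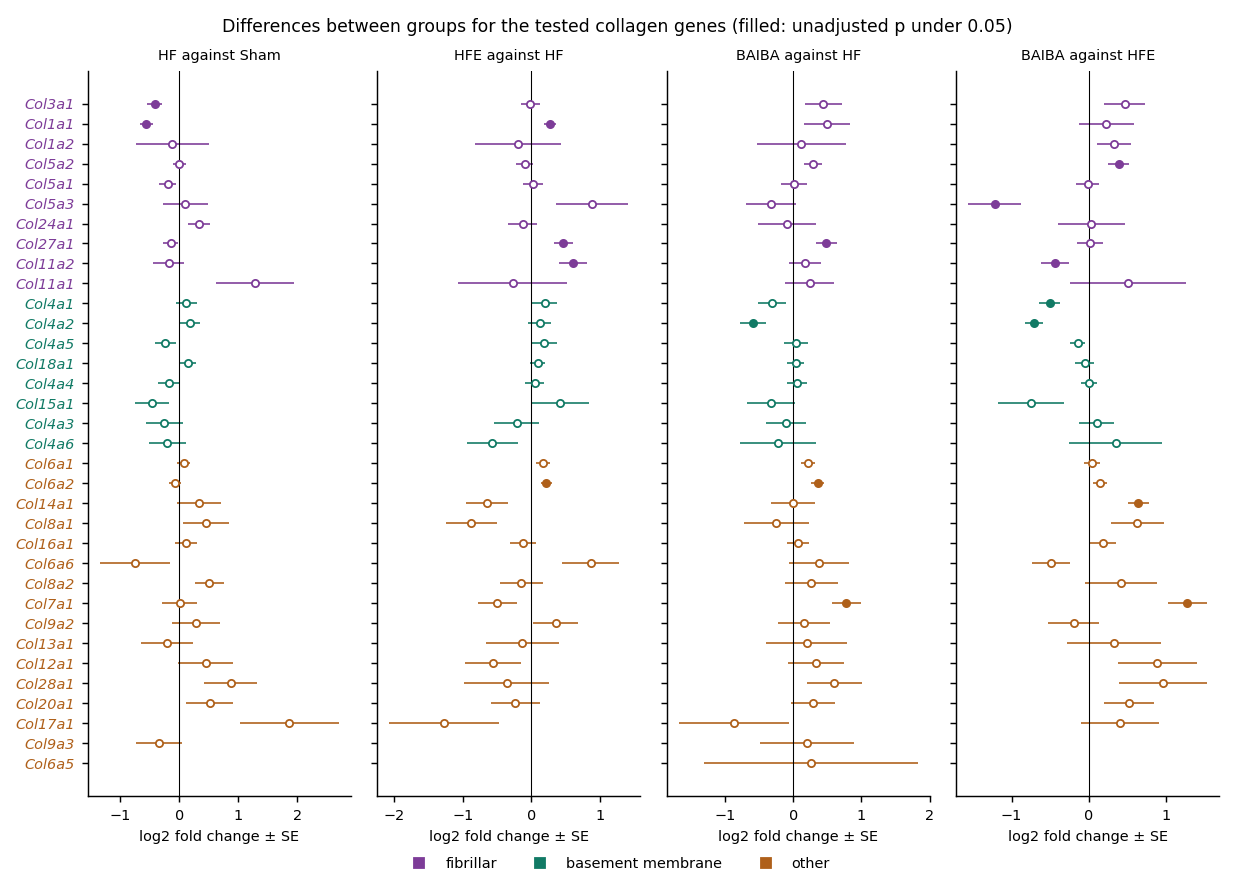
Log2 fold change with its standard error (horizontal) for each tested collagen (vertical, by class) in 4 comparisons. Filled points have an unadjusted edgeR p under 0.05, and none passed the adjusted limit. Col1a1 and Col3a1 lie left of 0 between HF and Sham, and Col4a1 and Col4a2 lie left of 0 between BAIBA and HFE.

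HF was set against Sham to see what the infarct left in the collagen genes. The main fibril genes had lower, not higher, values in HF. Col1a1, the larger chain of type I collagen, stood at 164, 176 and 141 in Sham, 104, 115 and 108 in HF, 144, 127 and 124 in HFE and 235, 83.6 and 142 in BAIBA CPM. Each HF rat lay below each Sham rat (log2 fold change -0.56 ± 0.11 SE, edgeR adjusted p = 0.709). Col3a1, the chain of type III collagen, stood at 589, 630.0 and 531 in Sham, 379.6, 424 and 508 in HF, 493, 424 and 378 in HFE and 831, 394 and 556 in BAIBA CPM, again with no overlap between HF and Sham (-0.42 ± 0.13, adjusted p = 0.805). With DESeq2, the study's own tool, Col1a1 had an adjusted p of 0.00539 and stayed under the fold limit. These 2 were the collagens with an unadjusted p under 0.05 that were lower in HF, 2 of 33 tested, where 3.53% of all genes were lower at that limit. None of the 33 was higher, against 2.47% of all genes. Without reaching that limit, each HF rat lay above each Sham rat in Col8a2 (0.51 ± 0.25, adjusted p = 0.808) and Col11a1 (1.28 ± 0.66, adjusted p = 0.808). Col11a1 had only 1 to 24 counts per rat. The median log2 fold change of the 33 was 0.0071, and that of all genes was 0.0088. These counts turned on single rats. Without HF rat 1 there were 4 higher (Col4a1, Col4a2, Col8a1 and Col28a1) and 2 lower, without HF rat 2 there were 1 higher (Col17a1) and 4 lower, and without Sham rat 3 there were 3 higher (Col8a2, Col11a1 and Col12a1) and 2 lower. Without Sham rat 2 only Col1a1 was left. In a fit of all 12 rats neither Col1a1 nor Col3a1 was under 0.05, and 1 collagen, Col17a1, was higher.

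Sums of cell type markers were read beside Col1a1 and Col3a1. The summed fibroblast markers (6 of 6 in the table, with Mfap4 at 0 in all rats) ranged over 1325 to 1546 in Sham, 1346 to 2227 in HF, 1253 to 1489 in HFE, 1787 to 1982 in BAIBA CPM, and the summed activated fibroblast markers over 27.9 to 49.7 in Sham, 18.8 to 41.7 in HF, 20.9 to 49.6 in HFE, 17.6 to 109.7 in BAIBA. Gsn made up most of the fibroblast sum, at 1054 to 1261 in Sham and 1102 to 1882 in HF. Tcf21 was lower in HF than in Sham without overlap, at 6.81 to 8.16 against 8.65 to 14.6. HF and Sham overlapped in Gsn, Pdgfra, Dpt and Cygb. The cardiomyocyte sum (6 of 6) was lower in HF than in Sham without overlap, at 25700 to 28140 against 32190 to 34520. Myh6, a cardiac myosin heavy chain, carried that difference at 11250 to 13880 against 17420 to 19600, and the groups overlapped in the 5 others (Tnni3, Tnnt2, Ryr2, Actn2 and Myl2). The cartilage and valve sum (6 of 6, with Matn1 at 0 in all rats) was also lower in HF without overlap, at 8.96 to 11.7 against 14.1 to 15.8. The part of these in the result was not tested. Leaving out each rat in turn kept Col1a1 between -0.63 and -0.49 and Col3a1 between -0.54 and -0.33 on the log2 scale.

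The other type I chain did not follow the first. Col1a2 stood at 96, 76.1 and 76.4 in Sham, 90.01, 19.3 and 120.4 in HF, 65.98, 59.8 and 74.1 in HFE and 114, 69.7 and 65.6 in BAIBA CPM. HF rat 2 was far below the other 11 rats, with 315 counts. Its Col1a1, 115 CPM, was the highest of the HF rats, and its Col3a1, 424 CPM, lay between those of the other HF rats. The ratio of Col1a1 to Col1a2 in FPKM was accordingly 4.56 in that rat and 0.691 to 1.78 in the others. Of 8188 genes averaging at least 10 CPM, HF rat 2 was under 50% of the lowest other rat at 3 genes, of which Col1a2 was the only collagen. The log2 fold change of Col1a2 between HF and Sham, -0.12, turned to 0.34 without that rat. Its difference is thus set by 1 library. The promoter of Col1a2 is shown because this gene parted from its partner chain. The bases before its RefSeq start are given 5′ to 3′ on the plus strand of GRCr8, chr4:33518307-33518556. In capitals are ATTGG, which is CCAAT on the other strand, and TATAAA, which lies nearer the far end of this stretch than the start:
Col1a2: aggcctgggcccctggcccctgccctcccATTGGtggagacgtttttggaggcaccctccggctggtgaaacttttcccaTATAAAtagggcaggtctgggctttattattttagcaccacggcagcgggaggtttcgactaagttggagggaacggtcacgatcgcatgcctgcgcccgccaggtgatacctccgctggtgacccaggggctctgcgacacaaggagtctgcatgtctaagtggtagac
CCAAT on either strand was found in 32.4% of the 34 collagen promoters available and 37.7% of 27457 promoters of all genes (windows of 250 bases before to 50 after the start). TATAAA on either strand was found in 11.8% and 14.3%. A match of letters is not a bound site, and the windows of Col1a1 and Col3a1 were not among those given.

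Type V chains, which join type I fibrils, did not separate HF from Sham. Col5a1 stood at 56.3, 54.8 and 52.3 in Sham, 37.3, 52.9 and 52.4 in HF, 51.2, 47.8 and 46.2 in HFE and 57.4, 38.4 and 47.5 in BAIBA CPM and Col5a2 at 53.02, 49.2 and 60.1 in Sham, 47.9, 54.6 and 60.2 in HF, 54.9, 42.9 and 54.2 in HFE and 73.2, 66.8 and 58.4 in BAIBA CPM, and for both HF overlapped Sham. All HFE rats were below all Sham rats in Col5a1, and all BAIBA rats were above all HFE rats in Col5a2. Col27a1, a fibrillar collagen best known from cartilage, stood at 12.6, 10.96 and 13.5 in Sham, 10.8, 11.2 and 11.4 in HF, 17.98, 13.4 and 14.8 in HFE and 17.2, 16.6 and 12.8 in BAIBA CPM. All HFE and all BAIBA rats lay above the HF rats, by 0.46 ± 0.14, adjusted p = 0.627, and 0.48 ± 0.15, adjusted p = 0.852, on the log2 scale. Col5a3, a further type V chain, stood at 17.9, 19.6 and 16.7 in Sham, 13.8, 32.3 and 12.2 in HF, 53.99, 34.6 and 19.5 in HFE and 16.4, 15.7 and 14.3 in BAIBA CPM and was named after its values were seen. The 3 HFE rats were spread widely, and HF rat 2 was also high. Col11a2 stood at 6.4, 6.22 and 3.87 in Sham, 6.08, 4.11 and 4.45 in HF, 8.12, 6.71 and 7.47 in HFE and 4.57, 6.03 and 5.85 in BAIBA CPM, and Col11a1 and Col24a1 varied without separating the groups of infarcted rats. Col2a1 had 0 to 6 counts and was not tested.

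**Figure D3:**
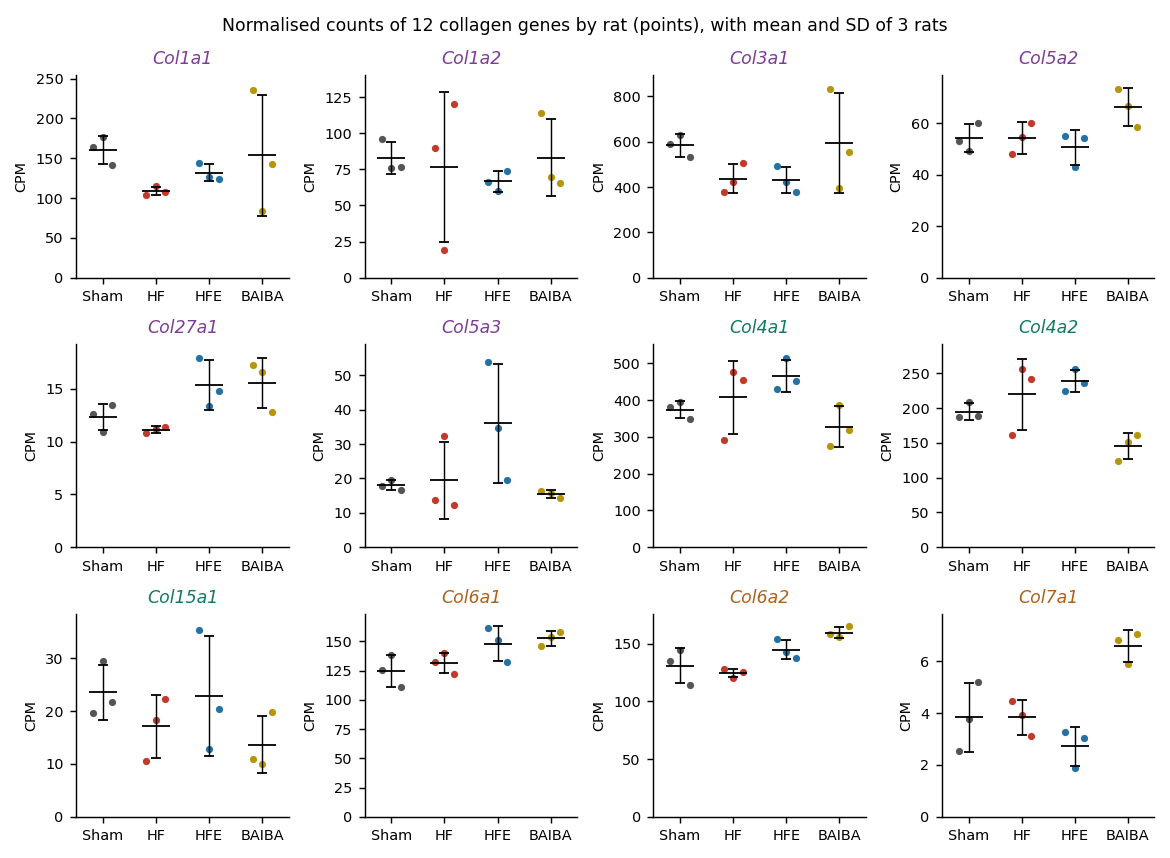
CPM (vertical, from 0) of 12 collagen genes in the 4 groups (horizontal). Points are rats, and bars are the mean and SD of 3 rats, with gene names coloured by class as in the plot of levels. Col1a2 has 1 low HF rat at 19.3 CPM, and the 3 BAIBA rats lie above all others for Col7a1.

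Exercise was compared with sedentary HF. The differences were small. Of 32 collagens tested, 4 were higher at an unadjusted p under 0.05 (4.34% of all genes were) and 0 were lower (3.29%). These were Col27a1, Col1a1 (0.27 ± 0.09, adjusted p = 0.627), Col11a2 (0.61 ± 0.21, adjusted p = 0.627) and Col6a2 (0.21 ± 0.08, adjusted p = 0.634), each on the log2 scale, and each with all HFE above all HF rats in CPM. In FPKM, Col6a2 overlapped, at 35.6 in HFE rat 3 and 36.4 in HF rat 1. The lowest adjusted p was 0.627. DESeq2 had 5 of 41 collagens higher at an unadjusted p under 0.05, with Col6a6 added, and 2 lower. The lower ones were Col8a1 (-0.88 ± 0.36, adjusted p = 0.474) and Col14a1 (-0.65 ± 0.29, adjusted p = 0.592). With limma on log2(FPKM + 1) none of the 4 found by edgeR stayed under 0.05. Without HFE rat 1, Col27a1 alone was higher and 2 collagens, Col4a6 and Col12a1, were lower. There were 2 higher without HF rat 3, 4 higher and 2 lower without HF rat 1, and 5 higher and 1 lower without HF rat 2. HFE rats lay below Sham rats in Col3a1 (-0.43 ± 0.11, adjusted p = 0.289) and Col1a2 (-0.31 ± 0.12, adjusted p = 0.399), and Col1a1 overlapped (-0.28 ± 0.10, adjusted p = 0.373).

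Among basement membrane collagens, the leading pair was lowest in BAIBA and highest in HFE on average. Col4a1 and Col4a2 encode the chains of the type IV network present in nearly every basement membrane. Col4a1 stood at 380.4, 393 and 348 in Sham, 292, 475 and 454 in HF, 430.1, 514 and 451 in HFE and 275, 387 and 319.7 in BAIBA CPM, and Col4a2 at 187, 209 and 188 in Sham, 161, 256 and 242 in HF, 224, 256 and 236 in HFE and 124, 152 and 161 in BAIBA CPM. For both genes all HFE rats were above all Sham rats, and for Col4a2 all BAIBA rats were below all rats of the other groups. Between HFE and Sham the log2 difference was 0.32 ± 0.09, adjusted p = 0.296 for Col4a1 and 0.30 ± 0.08, adjusted p = 0.292 for Col4a2. Between BAIBA and HFE it was -0.50 ± 0.14, adjusted p = 0.26 for Col4a1 and -0.71 ± 0.12, adjusted p = 0.117 for Col4a2. Col4a2 had the lowest p of all collagens there. Between BAIBA and HF it was -0.60 ± 0.19, adjusted p = 0.852 for Col4a2, and between BAIBA and Sham -0.42 ± 0.12, adjusted p = 0.532. HF rats spread from below to above the Sham rats for both genes.

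The adjusted p of Col4a2 between BAIBA and HFE depended on the method. The adjusted p was 4e-05 with DESeq2, 0.0298 in edgeR without the filter and 0.0487 with the replicate number as a block, yet the fold stayed under the limit throughout, so it was not called. Leaving out each rat gave -0.79 to -0.62 on the log2 scale. The summed endothelial markers (5 of 6 in the table, none at 0) ranged over 755 to 973 in Sham, 751 to 1050 in HF, 748 to 967 in HFE, 548 to 944 in BAIBA CPM. BAIBA rat 1 was lowest in this sum, and Col4a2 was -0.62 without it. The part of endothelial content in the difference was not tested.

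The 2 genes are neighbours in opposite orientation and share the short stretch between their starts. It is printed because Col4a2 had the lowest p between BAIBA and HFE. The ratio of Col4a1 to Col4a2 in FPKM was 1.36 to 1.92 over the 12 rats, a spread of 1.41-fold. Of the other head-to-head pairs of type IV genes, Col4a3 and Col4a4 spread over 1.97-fold and Col4a5 and Col4a6 over 4.37-fold. Col4a6 had 8 to 39 counts per rat and Col4a3 110 to 252, against at least 2226 for Col4a2 and 4938 for Col4a1. Counting error therefore widens the ratios of these pairs more, and the spreads are not on equal terms. The ratio of Col6a1 to Col6a2, not a head-to-head pair, spread least at 1.26-fold, and that of Col1a1 to Col1a2 spread over 6.61-fold, or 2.58-fold without HF rat 2. The 76 bases between the RefSeq starts are chr16:84885521-84885596 on the plus strand of GRCr8, with a GC box (GGGCGG, here read from the other strand) in capitals:
Col4a1 and Col4a2: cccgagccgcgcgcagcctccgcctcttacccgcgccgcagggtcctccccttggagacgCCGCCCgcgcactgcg
GGGCGG on either strand was found in 55.9% of the 34 collagen promoters and 34.9% of the 27457 promoters. The stretch has no CCAAT or TATAAA on either strand.

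Col4a3 and Col4a4, which with Col4a5 form the network of kidney glomeruli, were low to moderate here. Col4a4 stood at 65.3, 59.5 and 46.7 in Sham, 40.2, 58.5 and 53.3 in HF, 53.99, 54.3 and 49.2 in HFE and 49.1, 58.4 and 50.4 in BAIBA CPM and Col4a3 at 14.5, 9.34 and 12.8 in Sham, 6.31, 14.2 and 10.3 in HF, 7.52, 11.7 and 7.41 in HFE and 7.86, 11.1 and 9.59 in BAIBA CPM, and neither separated the groups. Col4a5 stood at 51.98, 52.5 and 52.6 in Sham, 33.1, 55.8 and 44.1 in HF, 55.2, 49.2 and 46.7 in HFE and 46.4, 45.2 and 44.9 in BAIBA CPM, and its partner Col4a6 at 0.482 to 2.18 CPM. Per length, Col4a5 exceeded Col4a6 by 16.2 to 70.7 times. Of the multiplexins, which release the fragments restin and endostatin, Col15a1 stood at 19.6, 29.5 and 21.7 in Sham, 10.6, 18.4 and 22.4 in HF, 35.3, 12.9 and 20.4 in HFE and 10.99, 10.01 and 19.8 in BAIBA CPM and Col18a1 at 20.7, 24.2 and 27.8 in Sham, 24.5, 28.7 and 27.2 in HF, 31.4, 25.5 and 28.8 in HFE and 29.1, 24.2 and 29.1 in BAIBA CPM. BAIBA rats overlapped Sham rats in Col15a1 (-0.79 ± 0.29, adjusted p = 0.638), and Col18a1 varied by 1.52-fold over all rats.

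**Figure D4:**
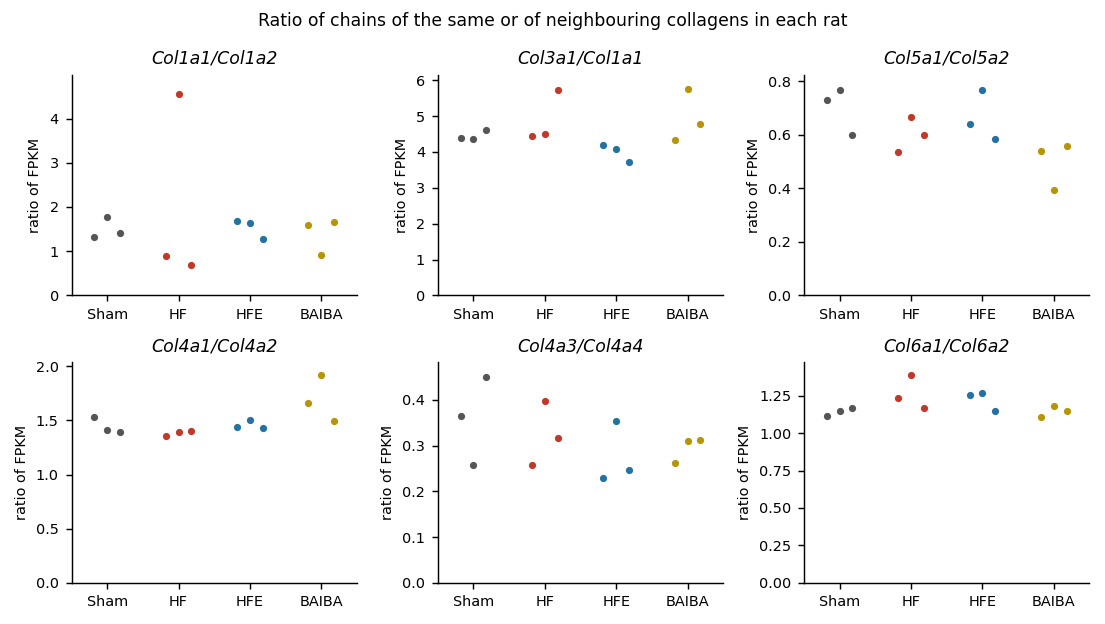
Ratio of FPKM between pairs of collagen chains (vertical, from 0) by group (horizontal), with 1 point per rat. Col4a1/Col4a2 and Col6a1/Col6a2 spread over 1.41-fold and 1.26-fold, and Col1a1/Col1a2 over 6.61-fold with HF rat 2 at 4.56 and 2.58-fold without it.

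BAIBA was compared with sedentary HF to ask what the amino acid changed. Of 34 collagens tested, 3 were higher at an unadjusted p under 0.05 (2.81% of all genes) and 1 was lower (2.73%), and the lowest adjusted p was 0.852. The higher ones were Col27a1, Col6a2 and Col7a1, and the lower one was Col4a2. The median log2 fold change of the 34 was 0.16, against -0.0098 for all genes. Without BAIBA rat 2 there were 5 higher, Col1a1 and Col3a1 among them, and 2 lower. Col4a2 was no longer under 0.05 without BAIBA rat 1, HF rat 2 or HF rat 3. Col6a1 and Col6a2 encode the short chains of type VI collagen. Col6a1 stood at 125, 138 and 111 in Sham, 132, 140.1 and 122 in HF, 161, 151 and 132 in HFE and 146, 154 and 158 in BAIBA CPM. Col6a2 stood at 135, 144 and 114 in Sham, 128, 121 and 126 in HF, 154, 143 and 137 in HFE and 158, 156 and 165 in BAIBA CPM, where each BAIBA rat lay above every other rat. In FPKM, which is not TMM-scaled, HFE rat 1 at 42.3 lay above BAIBA rat 2 at 40.7. Against HF, Col6a2 was higher by 0.36 ± 0.09, adjusted p = 0.852 and Col6a1 by 0.21 ± 0.10, adjusted p = 0.852 on the log2 scale. DESeq2 gave Col6a2 an adjusted p of 0.0483 at a fold under the limit. Col7a1, which makes the anchoring fibrils of skin, stood at 2.54, 3.76 and 5.19 in Sham, 4.47, 3.93 and 3.12 in HF, 3.26, 1.87 and 3.04 in HFE and 6.8, 5.9 and 7.05 in BAIBA CPM. The BAIBA rats were again above all other rats (0.78 ± 0.22, adjusted p = 0.852 against HF and 0.79 ± 0.27, adjusted p = 0.612 against Sham).

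Against HFE, the BAIBA rats had 3 of 32 collagens higher at an unadjusted p under 0.05 (4.68% of all genes) and 4 lower (4.88%). The higher ones were Col7a1 (1.27 ± 0.25, adjusted p = 0.161), Col14a1 (0.64 ± 0.14, adjusted p = 0.176) and Col5a2 (0.39 ± 0.13, adjusted p = 0.394), and the lower ones Col4a2, Col4a1, Col5a3 (-1.22 ± 0.35, adjusted p = 0.307) and Col11a2 (-0.44 ± 0.19, adjusted p = 0.507). The median log2 fold change of the 32 was 0.16, against 0.0005 for all genes. The 3 higher became 7 without HFE rat 1 and 6 without BAIBA rat 2. Col5a3 was at -0.80 on the log2 scale, under the fold limit, without HFE rat 1. With the replicate number as a block there were 5 higher and 4 lower, with Col8a1 (0.54 ± 0.19, adjusted p = 0.327) and Col12a1 (0.88 ± 0.20, adjusted p = 0.148) gained among the higher, Col6a6 (-0.52 ± 0.18, adjusted p = 0.323) gained among the lower and Col11a2 lost. The fibroblast, macrophage and mesothelial marker sums were higher in BAIBA than in HFE without overlap (97.6 to 232 against 65 to 93.7 CPM for macrophage), and their part was not tested. Single genes of each list did overlap. These were Tcf21 and Cygb for fibroblast, C1qa, Adgre1, Cd68 and Csf1r for macrophage, and Wt1, Lrrn4 and Krt19 for mesothelial. The mesothelial sums nearly met, at 24.1 CPM in BAIBA rat 2 and 23.5 in HFE rat 3, and Wt1 made up most of both. DESeq2, under the same limits, called Col5a3, Col6a5 and Col7a1 here, 3 of 43 collagens, where it called 1.08% of all genes. Col6a5 had 1 read in each HFE rat and 56, 3 and 37 in the BAIBA rats, and the edgeR filter left it out of this pair. In each of the other 5 pairs of groups DESeq2 called 0 collagens. Its test of any difference called Col4a2 and Col7a1, where it called 2.02% of all genes. In edgeR, 5 of 35 collagens had an unadjusted p under 0.05 in that test (Col4a2, Col7a1, Col6a2, Col27a1 and Col5a3), against 9.71% of all genes. That count of 5 was 11 without HF rat 1, 9 without HF rat 2 and 8 without BAIBA rat 2.

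Col14a1 and Col12a1 bind the surface of type I fibrils. Col14a1 stood at 36.4, 29.2 and 53.5 in Sham, 31.9, 41.9 and 76.6 in HF, 33.1, 30.2 and 32.7 in HFE and 59.9, 46.95 and 42.9 in BAIBA CPM and Col12a1 at 3.06, 1.62 and 6.04 in Sham, 3.44, 5.4 and 5.77 in HF, 5.46, 2.08 and 2.41 in HFE and 10.1, 3.66 and 4.58 in BAIBA CPM. HF rat 3 and BAIBA rat 1 were highest in Col14a1, and BAIBA rat 1 was highest in Col12a1. Col8a1, a network collagen of vessel walls, stood at 14.7, 10.96 and 18.7 in Sham, 9.92, 22.8 and 27.96 in HF, 13.2, 9.34 and 10.4 in HFE and 25.99, 9.88 and 14.96 in BAIBA CPM, with HF rat 3 and BAIBA rat 1 highest. Col16a1, a further fibril-associated collagen, ranged from 9.35 to 14.6 CPM and Col8a2 from 2.14 to 7.86.

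Relative to Sham, BAIBA rats had 6 of 33 collagens higher at an unadjusted p under 0.05 (4.13% of all genes) and 3 lower (3.28%), with a median log2 fold change of 0.18 against 0.0040 for all genes. Besides Col7a1, Col6a1, Col6a2 and Col5a2, the higher ones were Col28a1 and Col11a1, both of few counts, and the lower ones were Col4a2, Col15a1 and Col4a5. Col28a1, a type known from nerve, stood at 0.865, 0.454 and 0.985 in Sham, 0.86, 1.47 and 1.91 in HF, 2.06, 0.346 and 0.886 in HFE and 1.9, 2.95 and 1.63 in BAIBA CPM (log2 fold change 1.48 ± 0.41 SE, edgeR adjusted p = 0.517). The counts behind it were 5 to 46 per rat. Schwann cell markers (6 of 6, none at 0) were 40.96 to 62.05 in Sham, 53.4 to 70.3 in HF, 37.6 to 72.2 in HFE, 39.9 to 75.5 in BAIBA CPM in sum, and their part in the difference was not tested. Between BAIBA and Sham 5 other marker sums did not overlap. The atrial sum (4 of 4) was 1.99 to 3.62 CPM in BAIBA against 13.7 to 65.9 in Sham, the cartilage and valve sum 8.4 to 11.2 against 14.1 to 15.8, and the fibroblast, mesothelial and erythroid sums were higher in BAIBA. By single gene, only Myl7 of the atrial and Hapln1 of the cartilage and valve genes were free of overlap. All mesothelial genes overlapped, as did Tcf21, Pdgfra and Cygb of the fibroblast genes and Ahsp and Slc4a1 of the erythroid genes. The part of these sums was not tested either. The 6 higher and 3 lower became 3 and 2 without BAIBA rat 3, with Col5a2, Col27a1 and Col28a1 higher and Col4a2 and Col15a1 lower. Without Sham rat 1 there were also 3 and 2, with Col6a5, Col7a1 and Col28a1 higher and the same 2 lower. Col27a1 and Col6a5 were not among the 6. HFE rats against Sham had 4 of 31 higher (6.04% of all genes) and 3 lower (5.15%), namely Col4a2, Col4a1, Col5a3 and Col6a1 above and Col3a1, Col1a1 and Col1a2 below. Without Sham rat 1 there were 2 higher and 1 lower (Col4a1, Col4a2 and Col3a1), and 5 were lower without HFE rat 1 or without Sham rat 2. In a fit of all 12 rats Col5a3 and Col6a1 were higher and none was lower. Col5a3 between HFE and Sham was 1.00 on the log2 scale and 0.59 without HFE rat 1. The cardiomyocyte and macrophage sums were lower and the erythroid sum higher in HFE than in Sham without overlap, and their part was not tested. Myh6 carried the cardiomyocyte difference, while Tnnt2 and Myl2 were higher in HFE than in Sham without overlap. Adgre1 and Cd68 of the macrophage genes overlapped, and of the erythroid genes only Hbb did not.

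A pair of collagens marked single rats. Col6a5, a long chain of type VI, stood at 0.404, 0.259 and 0.131 in Sham, 4.53, 0.0614 and 0.053 in HF, 0.0666, 0.0692 and 0.0633 in HFE and 3.12, 0.192 and 2.23 in BAIBA CPM, which is 1 read in each HFE rat, so no fold is given against that group. HF rat 1, BAIBA rat 1 and BAIBA rat 3 were far above the rest. The mesothelial markers (6 of 6 in the table, none at 0 in all rats) were high in the same 3 rats for 5 of the 6. Wt1, the exception, was at 14.5, 17.8 and 18.8 CPM in them, within or below the 16.9 to 23.6 of the others. Msln was at 5.33, 36.1 and 10.3 CPM in them and at most 2.50 in the other 9. Upk1b was at 2.52, 11.2 and 3.20 and Upk3b at 2.12, 10.5 and 6.21, against at most 0.657 and 0.591 elsewhere. Adipoq, an adipocyte gene, was at 12.4 in HF rat 1 and 10.01 in BAIBA rat 3, and at 0.167 in BAIBA rat 1. The part of such tissue in the Col6a5 values was not tested. Col17a1, a membrane-spanning collagen of epithelia, stood at 0.519, 0.843 and 1.45 in Sham, 7.68, 1.1 and 1.43 in HF, 2.06, 0.831 and 1.33 in HFE and 3.12, 1.22 and 1.21 in BAIBA CPM, highest in HF rat 1 and BAIBA rat 1 (log2 fold change 1.86 ± 0.84 SE, edgeR adjusted p = 0.805 between HF and Sham, where the groups overlapped).

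**Figure D5:**
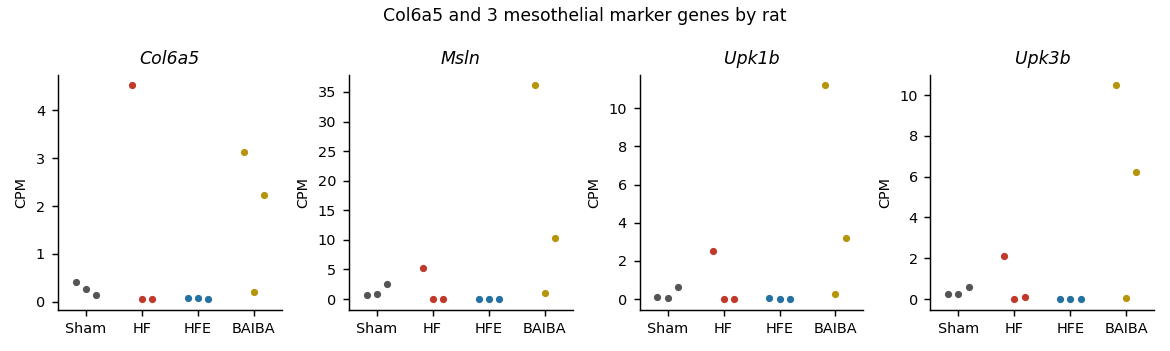
CPM (vertical) of Col6a5 and of the mesothelial markers Msln, Upk1b and Upk3b by group (horizontal), 1 point per rat. The 3 rats with Col6a5 of 2.23 CPM or more are the 3 with the highest values of each marker.

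The rest of the collagens were present in small amounts. None of those tested had an unadjusted p under 0.05 in any pair of groups in the edgeR test used for calls. Between BAIBA and Sham, Col20a1 was under 0.05 in the fit of all 12 rats, with at least 10 counts in every library, and without Sham rat 3. Col6a6 was under it between BAIBA and HFE without BAIBA rat 1, and between HFE and HF without HF rat 2 or with DESeq2. Col9a2 was under it between HFE and Sham without Sham rat 3. Col9a3 passed the filter on low counts in 3 of the 6 pairs and Col22a1 in none, so no test of Col22a1 was made. With the replicate number as a block, Col6a6 was under 0.05 between BAIBA and HFE, as given above, and also between HFE and HF and between HF and Sham. The block also put Col20a1 under 0.05 between BAIBA and Sham. Col6a6 ranged from 2.65 to 16.96 CPM, Col13a1 from 0.583 to 2.4, Col9a2 from 0.713 to 1.94, Col20a1 from 0.75 to 2.53, Col9a3 from 0.112 to 0.965 and Col22a1 from 0.159 to 0.86.

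BAIBA rat 1 had the highest Col1a1 and Col3a1 of all 12 rats, 235 and 831 CPM, and its markers are given above. Without it, Col1a1 and Col3a1 in BAIBA were 83.6 and 142 CPM, and 394 and 556 CPM. BAIBA rat 2 had the lowest Col1a1 of all.

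Genes that make, link and bind collagen fibres were read beside the collagens, with differences given as log2 fold change ± SE. As the background for their counts, 2.47% of all genes were higher and 3.53% lower at an unadjusted p under 0.05 between HF and Sham, 4.34% and 3.29% between HFE and HF, 2.81% and 2.73% between BAIBA and HF, 6.04% and 5.15% between HFE and Sham, and 4.68% and 4.88% between BAIBA and HFE. Most list counts were of 0 to 3 genes. Of 24 genes of collagen synthesis and processing, 22 to 24 were tested and none was called. Between HF and Sham 0 were higher and 2 lower at an unadjusted p under 0.05, Adamts2 (-0.29 ± 0.11, adjusted p = 0.805) and Adamts3 (-1.04 ± 0.44, adjusted p = 0.805), both of which trim procollagen ends. Between HFE and HF 3 were higher and 1 lower. Plod2, which hydroxylates lysines for crosslinks, was at 17.7, 17.2 and 17.5 CPM in HF and 11.9, 12.5 and 14.1 CPM in HFE (-0.45 ± 0.11, adjusted p = 0.627), and Adamts14, a further end-trimming protease, at 1.55, 1.41 and 1.01 CPM in HF and 2.86, 2.15 and 2.47 CPM in HFE (0.91 ± 0.30, adjusted p = 0.627). Between BAIBA and HF 3 were higher and 0 lower. Pcolce, an enhancer of procollagen trimming, was at 17.3, 21.1 and 17.6 CPM in HF and 31.96, 23.2 and 22.2 CPM in BAIBA (0.47 ± 0.17, adjusted p = 0.852), and Adamts2 differed by 0.41 ± 0.16, adjusted p = 0.852.

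Of 7 crosslinking genes, none was under 0.05 between HF and Sham or between HFE and HF, and 1 was lower between BAIBA and HF. That gene, Tgm2, a transglutaminase, was at 195, 206 and 231 CPM in Sham and 175, 336 and 335 CPM in HF and 264, 254 and 231 CPM in HFE and 186, 163 and 183 CPM in BAIBA (-0.67 ± 0.24, adjusted p = 0.852). Pxdn, which forms sulfilimine bonds in type IV collagen, differed by 0.25 ± 0.15, adjusted p = 0.822 between HF and Sham, -0.15 ± 0.20, adjusted p = 0.867 between HFE and HF and -0.54 ± 0.25, adjusted p = 0.852 between BAIBA and HF. Loxl4, a lysyl oxidase, differed by 0.37 ± 0.35, adjusted p = 0.795 between HFE and HF, and Tgm2 by 0.42 ± 0.25, adjusted p = 0.822 between HF and Sham.

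Of 10 collagen-binding matrix genes tested, 2 were lower between HF and Sham, 1 lower between HFE and HF and 1 higher between BAIBA and HF. Fn1, fibronectin, was at 47.4, 76.7 and 58.05 CPM in Sham and 32.2, 36.3 and 50.05 CPM in HF and 31.2, 26.9 and 25.2 CPM in HFE and 187, 42.9 and 65.8 CPM in BAIBA (-0.62 ± 0.22, adjusted p = 0.805 between HF and Sham and -0.51 ± 0.17, adjusted p = 0.627 between HFE and HF). Ogn, a small leucine-rich proteoglycan, was at 4.27, 47.1 and 48.8 CPM in Sham and 5.45, 4.6 and 7.89 CPM in HF and 13.8, 13.4 and 5.76 CPM in HFE (-2.47 ± 0.89, adjusted p = 0.805 between HF and Sham and 0.87 ± 0.37, adjusted p = 0.648 between HFE and HF). Lum and Prelp, of the same family, differed by 0.46 ± 0.18, adjusted p = 0.852 and 0.49 ± 0.22, adjusted p = 0.852 between BAIBA and HF. BAIBA rat 1 was highest in both, at 195 and 99.4 CPM.

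Of 11 basement membrane partners, none was under 0.05 in these 3 comparisons. Among the lowest in p were the laminin chains Lamb1 (0.22 ± 0.13, adjusted p = 0.819) and Lama5 (0.22 ± 0.16, adjusted p = 0.843) between HF and Sham, Lama4 (0.18 ± 0.10, adjusted p = 0.695) between HFE and HF, and Agrn, agrin (-0.21 ± 0.16, adjusted p = 0.862), and Lamc3 (0.47 ± 0.35, adjusted p = 0.862) between BAIBA and HF. Among 8 collagen receptors and uptake genes tested, 1 was higher between BAIBA and HF, the integrin chain Itga11 (0.74 ± 0.30, adjusted p = 0.852). Itga2, another integrin chain (0.83 ± 0.49, adjusted p = 0.822 between HF and Sham and -1.19 ± 0.52, adjusted p = 0.648 between HFE and HF), the collagen receptor kinase Ddr2 (-0.51 ± 0.23, adjusted p = 0.648 between HFE and HF) and the protease Ctsk (-0.07 ± 0.20, adjusted p = 0.978 between HF and Sham, 0.36 ± 0.23, adjusted p = 0.852 between BAIBA and HF) were next in p.

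The comparisons of HFE with Sham, of BAIBA with Sham and of BAIBA with HFE held more of these genes under 0.05. Between HFE and Sham, 3 basement membrane partners were higher, Lamb1 (0.31 ± 0.09, adjusted p = 0.297) and Lama4 (0.23 ± 0.09, adjusted p = 0.391) among them, and between BAIBA and HFE 2 were lower, Agrn (-0.29 ± 0.09, adjusted p = 0.351) and Lama4 (-0.24 ± 0.10, adjusted p = 0.489). Of the matrix genes, Fn1 was lower in HFE than in Sham (-1.12 ± 0.18, adjusted p = 0.129) and 4 were higher in BAIBA than in HFE, Fbln1, fibulin (0.88 ± 0.23, adjusted p = 0.268), and Fn1 (1.83 ± 0.59, adjusted p = 0.43) among them. Tgm2 was lower in BAIBA than in HFE (-0.49 ± 0.10, adjusted p = 0.168). Of the synthesis genes 1 was higher and 3 lower between HFE and Sham, and 4 were higher and 1 lower between BAIBA and HFE, where Plod2 differed by 1.02 ± 0.27, adjusted p = 0.267. Plod2 was at 38.1, 18.7 and 20.9 CPM in BAIBA, with BAIBA rat 1 far above the others. Of the receptors and uptake genes, Mrc2, a collagen uptake receptor, was lower in HFE than in Sham (-0.41 ± 0.12, adjusted p = 0.315) and higher in BAIBA than in HFE (0.62 ± 0.18, adjusted p = 0.288). Between BAIBA and Sham, 4 synthesis genes were higher and 1 lower, 3 matrix genes were higher and 1 crosslinking gene was lower. There, 4.13% of all genes were higher and 3.28% lower. Among these genes were Plod2 (0.69 ± 0.27, adjusted p = 0.654), Prelp (0.56 ± 0.21, adjusted p = 0.6385), Fbln1 (0.52 ± 0.22, adjusted p = 0.663) and Tgm2 (-0.24 ± 0.10, adjusted p = 0.672). In BAIBA rats Prelp was at 99.4, 56.7 and 72.1 CPM and Fbln1 at 101, 56.6 and 67 CPM, so BAIBA rat 1 was again highest. None of the genes in these lists was called.

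Over the 12 rats, the genes most like the mean log2 CPM of Col1a1, Col1a2 and Col3a1, among 7515 genes of at least 10 CPM, were Abhd5 (Pearson r 0.912, Spearman rho 0.762), Mecr (0.867 and 0.965), Hspb8 (0.859 and 0.839), Dpp7 (0.850 and 0.846) and Zbtb8os (0.835 and 0.818). Each point is 1 library, and these are the highest of many correlations, given as a description. Without BAIBA rat 1 and HF rat 2, the extremes of that mean, the r values were 0.693, 0.902, 0.657, 0.739 and 0.753.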

How the data were processed

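RNA of 12 rat left ventricles was sequenced. Per the study's methods, reads were cleaned, mapped with HISAT2, used to find unannotated genes (StringTie, Gffcompare) and counted per gene by featureCounts. The submitters' processing notes name a mouse build, whereas the gene identifiers are those of rat Ensembl, so no coordinates are given for counts, and strand use in counting is not given in the sources used here, so overlapping antisense reads cannot be told apart. The deposited counts are raw whole numbers, and the deposited FPKM were computed by the authors from counts and gene length. A further deposited table repeats both.

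The counts were tested using edgeR 4.0.16 under R 4.3.3 (TMM, filterByExpr, robust quasi-likelihood test, Benjamini-Hochberg adjustment over all genes tested), and with DESeq2 1.42.0 and limma 3.58.1 as alternatives. A call required both adjusted p < 0.05 and more than 1 log2 unit of change. CPM were TMM-scaled over the 12 rats. With 3 rats a group, the smallest 2-sided exact permutation p is 0.1, so single values were not tested that way. Scripts were tested on simulated data. Members and gene lists were chosen with earlier results of these data known. The genes given per rat were the main chains of each class and the 3 collagens of lowest p in each comparison, from each list the 2 of lowest p, of which 1 is not reported here. The collagens and list genes absent from the table (Col6a3, Col21a1, Crtap, Pcolce2, Mia3, Tnxb, Podn, Hspg2, Lama3) are not analysed here. Same-numbered BAIBA and HFE rats deviated together (correlations 0.118 to 0.225), although the labels name different animals. The other pairs of groups did not all exceed 0.1. RefSeq (GRCr8) had a promoter window for 34 of 43 collagens.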

Additional observations from a re-analysis of the deposited data

How the results depend on the processing

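No collagen was called by edgeR in any comparison, and other methods changed that as follows. With the unadjusted p in place of the adjusted one, 1 collagen was called between HFE and Sham (Col5a3), 2 between BAIBA and Sham (Col11a1 and Col28a1) and 2 between BAIBA and HFE (Col5a3 and Col7a1). DESeq2 called 3 between BAIBA and HFE and 2 in its test of any difference. Leaving out one rat at a time gave 0 to 1 between BAIBA and HFE, the 1 being Col6a5 without BAIBA rat 2. With the replicate number as a block, 0 collagens were called in each comparison, Col4a2 between BAIBA and HFE had an adjusted p of 0.0487, and all-gene calls there went from 12 to 32. DESeq2 called 171 of all genes there. Each collagen class took another percent of FPKM than of counts, since FPKM divides by length. Fibrillar collagens took 0.0291% in Sham, 0.0222% in HF, 0.0221% in HFE and 0.0294% in BAIBA, basement membrane collagens 0.0179%, 0.0182%, 0.0198% and 0.0145%, and other collagens 0.0139%, 0.0141%, 0.0144% and 0.0167%.

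Of 760 alternative values of 45 single-gene log2 fold changes, 745 kept direction and stayed uncalled, 13 changed sign and 2 were called (Col5a3 and Col7a1, DESeq2, BAIBA against HFE). The size alone crossed 1 for some when a rat was dropped. Col5a3 ranged from -1.52 to -0.80 between BAIBA and HFE, Col17a1 from 0.45 to 2.33 between HF and Sham, Col15a1 from -1.17 to -0.60 and Col7a1 from 0.57 to 1.07 between BAIBA and Sham. Signs changed for values near 0 or resting on 1 rat. With single rats dropped, Col1a2 ranged from -0.34 (without HF replicate 2) to 0.60 between BAIBA and HF, from -0.60 to 0.34 (without HF replicate 2) between HF and Sham, and from -0.66 (without HF replicate 2) to 0.28 between HFE and HF. In the same way Col3a1 ranged from -0.12 to 0.10 between HFE and HF, Col4a1 from -0.011 to 0.31 between HF and Sham, and Col4a2 from -0.058 to 0.25 between HFE and HF. Col1a2 between HFE and HF was also 0.11 with the replicate block, 0.081 with limma on log2(FPKM + 1), with the filter or without it (0.081), and 0.12 with log2(FPKM + 0.1). The cause of these changes was not tested beyond the rat left out. The block had been listed at the start, and its fit over all 12 rats was added after seeing the data. It gave Col4a2 between BAIBA and HFE an adjusted p of 0.0588. Counts under about 10 per library limit Col11a1, Col28a1 and Col6a5.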
